A study of Homo sapiens with 12 samples.

Results

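The genes of the cytosolic ribosomal proteins were examined in hypoxic U87 cells that had lost HIF1α, HIF2α or both. Members were the genes whose symbol starts with RPL or RPS followed by a digit, together with RPSA, RPLP0, RPLP1 and RPLP2, without the RPS6K kinases. The rule found 91 of the 20263 genes in the table. Of these, 31 encode proteins of the small (40S) subunit, 43 encode proteins of the large (60S) subunit and 3 encode the acidic stalk. A further 10 are copy genes, which encode a second version of a ribosomal protein or of a relative of one, 3 are read-through genes that join a ribosomal protein gene to its neighbour, and 1, RPS19BP1, encodes a protein that binds RPS19 and is not itself part of the ribosome. FAU and RACK1 also encode parts of the ribosome, but their names fall outside the rule.

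U-87 MG is an established human glioblastoma line. All 12 libraries came from cells kept at 1% O2, for 72 h according to the series design, although the methods for mRNA detection speak of 12 h. The 4 groups, with 3 libraries each, were cells carrying the empty vector (vector), cells with HIF1α knocked out (HIF1α-ko), cells with HIF2α knocked out (HIF2α-ko) and cells with both knocked out (HIF1α/2α-ko). No library came from cells with normal oxygen, so every value describes a loss of HIF within hypoxia. How the knockouts were made, and whether each is 1 clone, is not given in the sources used here, and nothing says that the 3 libraries of a group are separate cultures, so p-values measure only the spread between these libraries. The deposited TPM values (transcripts scaled to gene length and to a common total) keep no depth, so the depth of each library is unknown.

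Each ribosome needs about equal numbers of its proteins, and most of them are made from single-copy genes whose mRNAs are among the most abundant in a dividing cell. Many of these mRNAs begin with a C followed by a run of pyrimidines, the 5′ terminal oligopyrimidine (TOP) tract, through which mTORC1 and LARP1 control their translation. Hypoxia is known to lower mTORC1 activity and ribosome production. In these data, changes in TPM report mRNA levels and not translation.

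The starts of 13 members are shown, most of them with the tract, and they were chosen because the results below turn on these genes and their partners. Each line gives 26 bases of the RefSeq promoter table (GRCh38.p14), with 6 bases before the listed start, and capitals mark the tract where a C at the start is followed by at least 4 pyrimidines. Where a gene had several listed starts, the start with the longest tract is shown. RPL26L1, RPS27L and RPS26 have no such tract in these lines.
RPL22L1 (chr3:170870176-170870201, minus strand): agcttcCTCTCTgctctcgcggccga
RPL22 (chr1:6199576-6199601, minus strand): cacctcCCTTTCTaactccgctgccg
RPL26L1 (chr5:172958723-172958748, plus strand): ggggtcggcgaacgaaacgcggagct
RPL26 (chr17:8383174-8383199, minus strand): gtagttCTCTTCCCTTTTgcggccat
RPS27L (chr15:63157458-63157483, minus strand): ccgagcgcagatcgcttgcagcttgc
RPS27 (chr1:153990756-153990781, plus strand): ttcgctCCTTTCCggcggtgacgacc
RPL13 (chr16:89560676-89560701, plus strand): cgcttcCTTTCCgctcggctgttttc
RPS21 (chr20:62387097-62387122, plus strand): ctgcttCCTTTCTCTCTCgcgcgcgg
RPLP1 (chr15:69452812-69452837, plus strand): cgagagCCCCTTTCCTCagctgccgc
RPL24 (chr3:101686699-101686724, minus strand): ttctctCTTTCTTTTCgccatctttt
RPS25 (chr11:119018324-119018349, minus strand): cgcttcCTTTTTgtccgacatcttga
RPL36A (chrX:101391005-101391030, plus strand): cggtttCTTTCTTTCCgcgccgatag
RPS26 (chr12:56041912-56041937, plus strand): aacctcgattttcttccgccatccgg

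The promoter table held 72 of the 91 members. A tract stood at a listed start of 49 of them, or 68.1%, against 5.14% of the 27305 genes in the table. It was found at 18 of 24 small-subunit genes, 25 of 35 large-subunit genes and all 3 stalk genes. Only 2 of 8 copy genes had one, and RPL22L1 was among them. The core letters of the hypoxia response element, ACGTG, were present on either strand of the 300-base promoter window in 31.9% of the members and 24.9% of all genes, and GCGTG was present in 55.6% and 40.6%. The E-box CACGTG, which contains ACGTG, was present in 6.94% of the members and 8.77% of all genes. A match is a run of letters and not a measured binding site.

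Most markers followed the profile of the line, with VIM between 5635 and 14690 TPM and CD44 between 399 and 1412 TPM. CDKN2A and CDKN2B, which the line lacks, were listed at 0 throughout, as were the astrocyte marker AQP4 and the oligodendrocyte marker MOG, and GFAP did not exceed 0.639 TPM. Other markers went against it: NES, a marker of the line, was only 2.64–6.17 TPM, while ALDH1L1 of the astrocyte list was 17.4–65.8 TPM and CD68 of the immune list was 587–1633 TPM, with the immune markers PTPRC and AIF1 at or near 0. HIF1A mRNA was 110–151 TPM in vector, 38.6–57.3 in HIF1α-ko and 67.8–89.2 in the dual knockout. It was 76.1–108 TPM in HIF2α-ko, where it was not targeted, which is below vector and overlaps the dual knockout. EPAS1, which encodes HIF2α, was 286–346 TPM in vector, 87.6–118 in HIF2α-ko and 101–130 in the dual knockout, so both targeted mRNAs were lower than in vector but not absent, and the HIF1A level does not by itself tell the dual knockout from HIF2α-ko. The share of TPM from mitochondrially encoded genes was highest in the library numbered 1 of every group, reaching 3.17% in vector replicate 1 against 0.517% and 0.836% in the other vector libraries, and the counts below are therefore also given without these 4 libraries, an alternative chosen after seeing the data.

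The members held a large part of all transcripts by this measure. Their share of total TPM was 13.6%, 16.1% and 15.7% in the vector libraries and 15.9%, 16.2% and 18.0% in HIF1α-ko. It was 14.8%, 15.1% and 15.2% in HIF2α-ko and 16.1%, 17.8% and 17.2% in the dual knockout. The means were 15.1% ± 1.37, 16.7% ± 1.11, 15.0% ± 0.209 and 17.1% ± 0.850 (SD, n = 3). The HIF1α/2α-ko libraries all lay above those of HIF2α-ko and of vector, the lowest of them by a very small margin over vector replicate 2, while the ranges of HIF1α-ko and vector overlapped. No test was made of the share. Between 17 and 25 of the 50 genes with the highest TPM in a library were members.

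**Figure D1:**
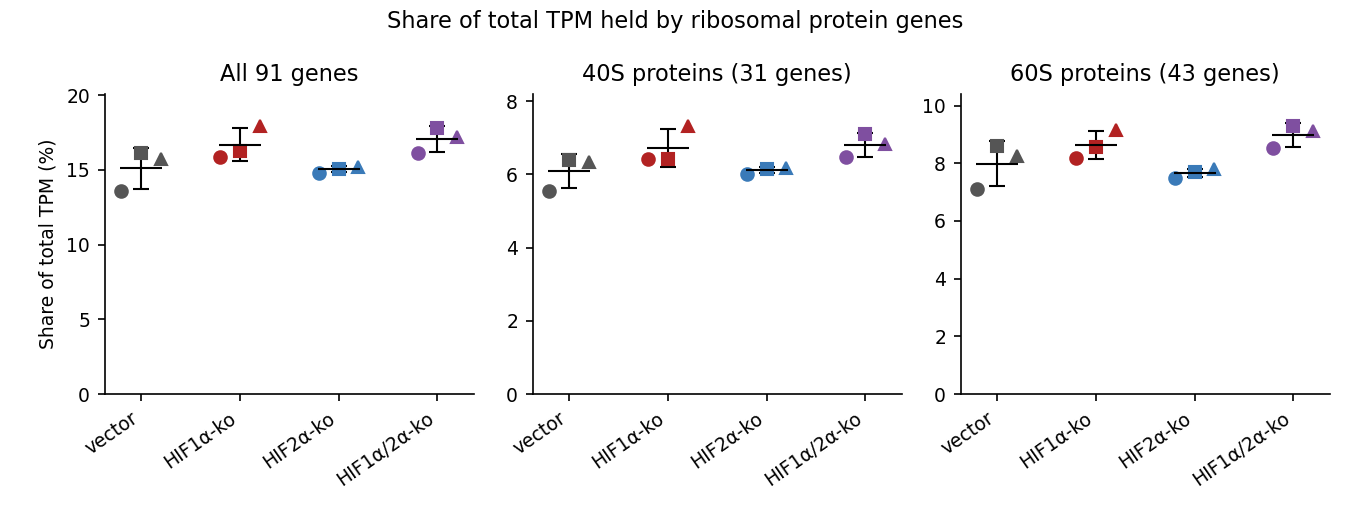
Share of total TPM (%) held by all 91 ribosomal protein genes, by the 31 small-subunit genes and by the 43 large-subunit genes in each of the 12 libraries, with circles, squares and triangles for replicates 1, 2 and 3 and bars for the mean ± SD. The vector libraries span 13.6% to 16.1% and the HIF1α/2α-ko libraries 16.1% to 17.8%.

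The balance between the subunits moved little. The summed TPM of the small-subunit genes was 0.682 ± 0.0180 times that of the large-subunit and stalk genes in vector, 0.681 ± 0.0190 after loss of HIF1α, 0.690 ± 0.00221 after loss of HIF2α and 0.671 ± 0.00365 after loss of both (SD, n = 3). The genes themselves were far from equal. On the TPM scale, which is per transcript length, the mean in vector ran from 187 (RPL22) to 7290 (RPL41, which encodes the smallest ribosomal protein) among the large-subunit genes, and from 372 (RPS23) to 6499 (RPS2) among the small-subunit genes. RPLP0, the scaffold of the stalk, reached 6023 ± 681 and RPSA, the laminin receptor protein of the small subunit, 5035 ± 303. The means of the 8 copy genes outside the Y chromosome were at most 170 TPM in vector, and RPL3L (at most 0.652 TPM) and RPL10L (0 in 11 of 12 libraries) were at or near 0. Because 77 members have at least 1 of 1144 pseudogenes named after them in GENCODE 29, including 74 for RPSA, and reads can be shared with such copies, differences in level between members are less certain than differences between groups for 1 member. A further 29 members hold small nucleolar RNA genes in their introns.

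Members were tested with limma on log2(TPM + 1) in 1 fit over the 4 groups, with Benjamini-Hochberg adjustment over all 11731 genes that reached 1 TPM in at least 3 libraries. A total of 87 members entered: RPL3L, RPL10L and the 2 genes on the Y chromosome did not. The 3 comparisons with vector share the vector libraries. Counts with a single library left out are given for members only, without the count of all tested genes in the same fit. They show how the member calls depend on single libraries and cannot be set against the background. The median of all tested genes was itself shifted, by 0.18 after loss of HIF1α, −0.04 after loss of HIF2α and 0.21 after loss of both (log2), and changes of members are therefore also given relative to it.

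Loss of HIF1α was followed by small rises of many members and by the fall of a few. In HIF1α-ko, 21 of the 87 members were higher than in vector and 4 were lower, where 17.3% of all tested genes were higher and 8.77% lower. The risers were 9 small-subunit genes, 8 large-subunit genes, RPLP0, RPLP1, RPS27L and RPS19BP1. RPS25, RPL24 and RPL36A were among the genes that fell. The median of the members was 0.22 on the log2 scale, close to the 0.18 of all genes, and the libraries did not overlap for 31 members that were higher and 5 that were lower (background 27.3% and 12.3%). With median ratio scaling, which removes most of the common shift, 1 member was higher (RPL13) and 6 were lower. Under that scaling 1278 of all 11731 tested genes were higher and 1527 lower. Without HIF1α-ko replicate 3 the number of risers was 5, and without HIF1α-ko replicate 2 it was 10. The falls numbered 9 without vector replicate 1, 1 without vector replicate 2 and 2 without either HIF1α-ko replicate 2 or replicate 3. Without the library numbered 1 of every group, the counts were 38 higher and 14 lower. Of all 11731 tested genes, 4601 were then higher and 1860 lower. The share of members above the median of all genes was 54.0% with all libraries and 41.4% without those numbered 1.

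After loss of HIF2α the members went both ways. In HIF2α-ko, 8 members were higher (RPS9, RPS12, RPS19, RPS21, RPL10, RPL13, RPL36 and RPLP1) and 8 were lower (among them RPS15, RPS25, RPS26, RPL4, RPL24, RPL36A and RPL37), against 5.07% and 5.89% of all genes. The median was 0.01 for the members and −0.04 for all genes. The libraries did not overlap for 18 members in either direction (background 12.6% higher and 18.0% lower). With median ratio scaling 5 were higher and 3 lower, beside 753 and 579 of all 11731 tested genes. The counts were smaller without single libraries: 1 higher when replicate 2 or 3 of HIF2α-ko was left out, 4 when its replicate 1 was left out and 2 when replicate 3 of vector was left out. The falls numbered 3 without vector replicate 2 or HIF2α-ko replicate 2, 4 without vector replicate 3, 5 without replicate 1 or 3 of HIF2α-ko, and 14 without vector replicate 1. Without the library numbered 1 of every group, 13 were higher and 23 lower. In that fit 2403 of all 11731 tested genes were higher and 1880 lower. Members above the median of all genes made up 63.2% with all libraries and 37.9% without those numbered 1.

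In the dual knockout the share of members that rose was near that of all genes. In HIF1α/2α-ko, 30 members (34.5%) were higher than in vector and 4 were lower (among them RPS25, RPS28 and RPL36A), where 31.8% of all genes were higher and 14.8% lower. The risers were 11 small-subunit genes, 13 large-subunit genes, RPLP1, RPS19BP1 and 4 of the 6 copy genes tested. The median of the members was 0.26 and that of all genes 0.21. The middle 50% of the members lay between 0.06 and 0.42, against −0.26 to 0.69 for all genes. Libraries did not overlap for 37 members that were higher and 6 that were lower (background 33.1% and 17.4%). With median ratio scaling the split was 5 higher and 7 lower, beside 2854 and 2600 of all 11731 tested genes. Leaving out HIF1α/2α-ko replicate 2 left 14 risers and leaving out replicate 3 left 19. The falls numbered 1 without vector replicate 2 or HIF1α/2α-ko replicate 3, and 2 without vector replicate 3 or HIF1α/2α-ko replicate 2. Without the library numbered 1 of every group, 42 were higher and 9 lower. In that fit 5316 of all 11731 tested genes were higher and 2234 lower. Members above the median of all genes made up 59.8% with all libraries and 40.2% without those numbered 1.

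**Figure D2:**
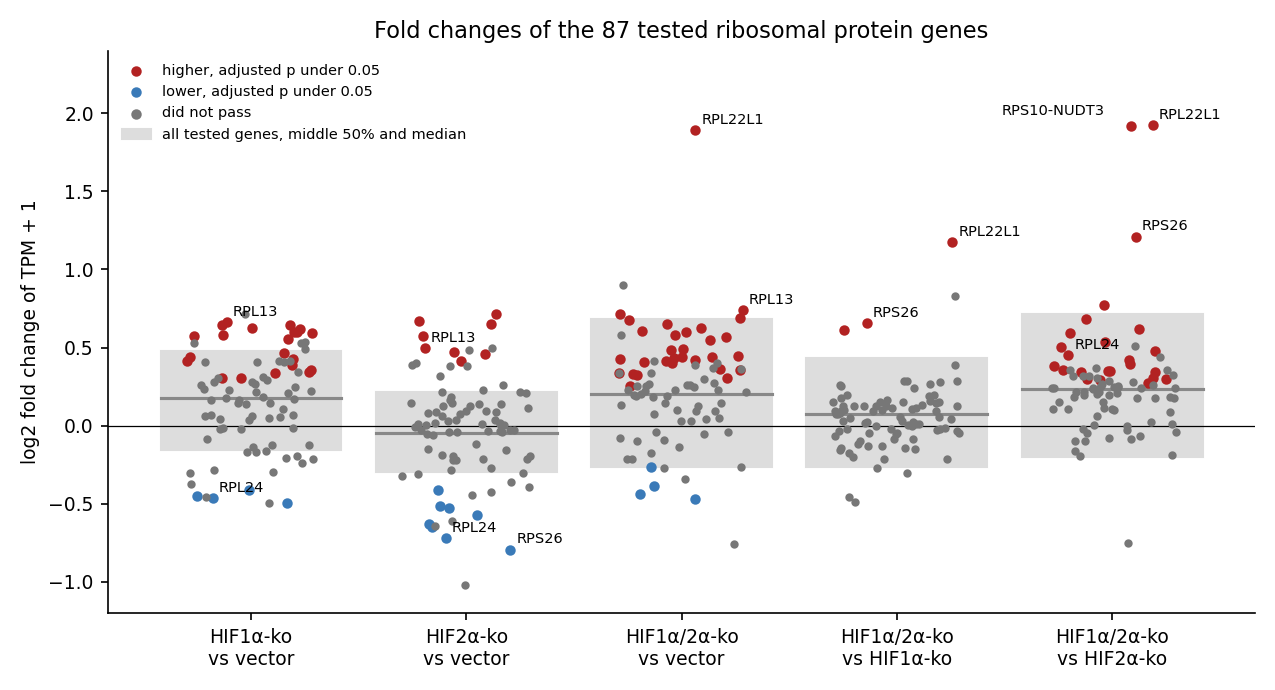
Difference in log2(TPM + 1) for each of the 87 tested members in 5 comparisons, in red where higher and blue where lower at an adjusted p under 0.05, with the middle 50% and median of all tested genes as a grey box and line. Most members lie within the grey box in each comparison, and RPL22L1 stands highest in HIF1α/2α-ko against vector, at 1.89.

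Against the single knockouts, more members were called higher over HIF2α-ko than over HIF1α-ko, as was true of all tested genes. HIF1α/2α-ko had 24 members (27.6%) higher and 0 lower than HIF2α-ko by limma, against 33.5% and 12.9% of all genes. Of the 24, 16 were large-subunit genes. The medians were 0.24 for the members and 0.23 for all genes. Against HIF1α-ko, 3 members were higher (RPL22L1, RPL26L1 and RPS26) and 0 lower by limma, where 17.7% and 10.6% of all genes passed. An unadjusted p under 0.05 was found for 36 members against HIF2α-ko and 6 against HIF1α-ko. All genes were not counted at that threshold, so these unadjusted counts have no background. Non-overlapping libraries were seen for 48 members higher and 1 lower against HIF2α-ko (background 38.8% and 17.9%), and for 12 higher and 0 lower against HIF1α-ko (background 25.6% and 18.7%). Equal replicate numbers deviated together in the knockout groups. With a replicate block over these groups the counts were 51 higher and 0 lower against HIF2α-ko, and 12 higher and 2 lower against HIF1α-ko. With that block, 5114 of all 11731 tested genes were higher and 2225 lower against HIF2α-ko. Against HIF1α-ko it gave 3398 higher and 2286 lower. Median ratio scaling left 3 higher and 1 lower against HIF2α-ko, and 2 higher and 0 lower against HIF1α-ko. For all tested genes it gave 2748 higher and 2468 lower, and 2011 higher and 1410 lower, in the same order. Leaving out any HIF2α-ko library gave 13 to 15 risers against HIF2α-ko, and leaving out HIF1α/2α-ko replicate 2 or 3 gave 14 and 12. Against HIF1α-ko, 1 riser was left without HIF1α-ko replicate 1, and 6 were found without vector replicate 1. Without the library numbered 1 of every group, 48 were higher and 0 lower against HIF2α-ko, and 8 higher and 3 lower against HIF1α-ko. In that fit 5062 of all 11731 tested genes were higher and 2060 lower against HIF2α-ko. Against HIF1α-ko, 3384 were higher and 1892 lower.

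RPL22L1 moved most among the members that passed the test against vector. It encodes a close relative of RPL22, a large-subunit protein, and its gene lies at chr3:170864875-170870483 (GENCODE 29, GRCh38, minus strand). RPL22L1 stood at 62.2, 56.7 and 91.6 TPM in vector and at 65.7, 66.1 and 69.9 in HIF2α-ko. It stood at 188, 344 and 264 TPM in the dual knockout and at 81.4, 109 and 164 in HIF1α-ko. All 3 dual-knockout libraries were above the 9 others, and those of HIF1α-ko overlapped with vector. The log2 fold change was 1.89 ± 0.27 (SE, adjusted p = 0.000127) in HIF1α/2α-ko against vector, or 1.69 relative to the median of all genes. Against HIF1α-ko it was 1.18 ± 0.27 (adjusted p = 0.00617) and against HIF2α-ko 1.92 ± 0.27 (adjusted p = 0.000116). In HIF1α-ko against vector it was 0.72 ± 0.27, which did not pass (adjusted p = 0.0644).

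RPL22 itself, which the RPL22L1 protein resembles, had smaller differences between groups. It measured 176, 200 and 186 TPM in vector, 194, 224 and 220 after loss of HIF1α, 171, 179 and 198 after loss of HIF2α and 219, 233 and 244 after loss of both. The dual-knockout libraries lay above those of vector, by 0.31 ± 0.11 (log2, SE, adjusted p = 0.0341), but this was 0.10 relative to the median of all genes and did not pass with median ratio scaling (adjusted p = 0.61). In vector the RPL22L1 level was below that of RPL22 in every library, and in HIF1α/2α-ko it was above RPL22 in 2 of 3 libraries.

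Of the other copy genes, RPL26L1, RPS27L and RPL7L1 also rose in the dual knockout. RPL26L1, a version of RPL26, stood at 40.5, 55.9 and 45.2 TPM in vector, 40.2, 58.0 and 54.8 after loss of HIF1α, 43.3, 43.7 and 48.1 after loss of HIF2α and 68.6, 84.5 and 80.6 after loss of both. RPS27L, a version of RPS27, stood at 52.9, 47.1 and 52.3 TPM in vector, 56.9, 68.4 and 84.7 after loss of HIF1α, 48.2, 48.5 and 56.8 after loss of HIF2α and 82.3, 74.0 and 80.5 after loss of both. For both, the dual-knockout libraries lay above all those of vector and HIF2α-ko. The rises against vector were 0.72 ± 0.17 (adjusted p = 0.00362) for RPL26L1 and 0.63 ± 0.15 (adjusted p = 0.00401) for RPS27L, and both calls held with median ratio scaling. RPS27L also passed in HIF1α-ko, at 0.44 ± 0.15 (adjusted p = 0.0444), though not with median ratio scaling (adjusted p = 0.27).

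RPL7L1, a nucleolar relative of RPL7 that takes part in ribosome assembly, was the lowest of the tested copy genes. It had 16.5, 12.7 and 12.9 TPM in vector, 16.9, 20.1 and 19.8 after loss of HIF1α, 11.4, 15.3 and 15.7 after loss of HIF2α and 16.3, 24.5 and 30.6 after loss of both. One dual-knockout library fell within the vector range, and the difference of 0.69 ± 0.21 passed (adjusted p = 0.0193). Without HIF1α/2α-ko replicate 2 or 3, or vector replicate 2 or 3, it did not pass, with adjusted p up to 0.096. The partner RPL7 ranged from 780 to 981 TPM in vector and from 725 to 1044 in HIF1α/2α-ko, and RPL26 from 1506 to 2071 and from 1681 to 2102, so neither partner separated the dual knockout from vector. RPL26 ranged from 1226 to 1439 TPM in HIF2α-ko, below every other library, and the dual knockout exceeded HIF2α-ko by 0.54 ± 0.15 (adjusted p = 0.00972), though not with median ratio scaling (adjusted p = 0.18). RPL36AL and RPL39L did not pass in any comparison with vector, with 157–185 and 25.9–43.9 TPM in vector and 165–236 and 22.2–35.6 in HIF1α/2α-ko.

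**Figure D3:**
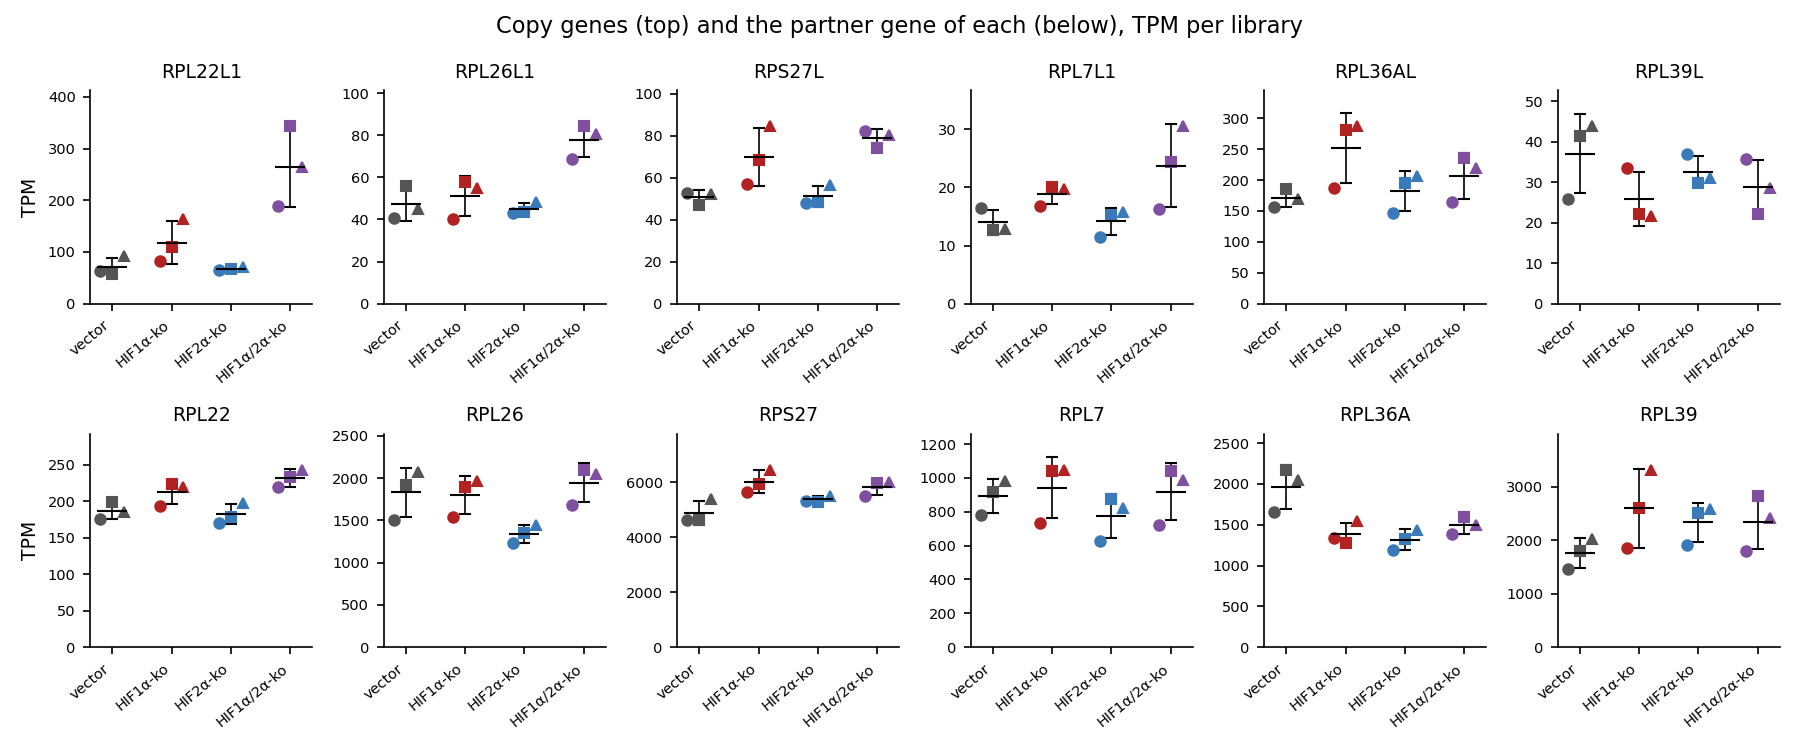
TPM per library of 6 copy genes (upper row) and of the partner gene of each (lower row) in the 4 groups, with circles, squares and triangles for replicates 1, 2 and 3 and bars for the mean ± SD. RPL22L1 reaches 188 to 344 TPM in HIF1α/2α-ko against 56.7 to 91.6 in vector, while RPL22 stays between 171 and 244 TPM in all libraries.

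A few core proteins were higher in all 3 knockouts. RPL13, a large-subunit protein, stood at 264, 295 and 288 TPM in vector, 418, 422 and 504 after loss of HIF1α, 396, 403 and 394 after loss of HIF2α and 436, 509 and 472 after loss of both. Every knockout library was above every vector library. The rise of RPL13 on the log2 scale was 0.74 ± 0.11 in the dual knockout (adjusted p = 0.000169). It was 0.66 ± 0.11 for HIF1α-ko (adjusted p = 0.00159) and 0.49 ± 0.11 for HIF2α-ko (adjusted p = 0.0139). All 3 passed with median ratio scaling and with quantile normalization. In HIF2α-ko the call was lost without HIF2α-ko replicate 2 or 3, with adjusted p up to 0.059.

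RPS21, a small-subunit protein, and RPLP1, an acidic stalk protein that helps to recruit elongation factors, were also higher in each knockout. RPS21 measured 1237, 1601 and 1510 TPM in vector, 1845, 2089 and 2964 after loss of HIF1α, 2214, 2418 and 2466 after loss of HIF2α and 2039, 2649 and 2252 after loss of both. RPLP1 measured 2049, 2684 and 2352 TPM in vector, 3108, 3128 and 4200 after loss of HIF1α, 3570, 3655 and 3829 after loss of HIF2α and 3067, 3892 and 3406 after loss of both. No knockout library fell within the vector range for either gene. The rises ranged from 0.64 to 0.71 for RPS21 and from 0.55 to 0.65 for RPLP1, with adjusted p values of 0.00601 to 0.0198 and 0.00725 to 0.0152. Relative to the median of all genes the rises in HIF2α-ko were 0.76 and 0.69, and of these 6 calls those in HIF2α-ko alone held with median ratio scaling. For both genes, however, the calls in each single knockout were lost when some single library was left out. Those in the dual knockout held with every library left out in turn.

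RPL10, which stands at the junction of the subunits in the finished ribosome, was higher in each knockout, with the smallest estimate in the dual one. It measured 1483, 1878 and 1503 TPM in vector, 2220, 2417 and 2875 after loss of HIF1α, 2276, 2583 and 2341 after loss of HIF2α and 1821, 2497 and 2175 after loss of both. The single knockouts lay above vector and the dual knockout overlapped with it. The rise was 0.63 ± 0.14 with HIF1α lost (adjusted p = 0.00872), 0.57 ± 0.14 with HIF2α lost (adjusted p = 0.0253) and 0.41 ± 0.14 with both lost (adjusted p = 0.0319), on the log2 scale. With median ratio scaling RPL10 passed in HIF2α-ko alone (adjusted p = 0.067 for HIF1α-ko and 0.35 for the dual knockout). The call in HIF2α-ko was lost without any HIF2α-ko library or vector replicate 3, and that in the dual knockout without any 1 of 4 libraries (replicates 1 and 3 of vector, 2 and 3 of the dual knockout), with adjusted p up to 0.14. RPS12 rose by 0.60 to 0.67 in the 3 knockouts and RPL31 by 0.64 in HIF1α-ko and by 0.65 in the dual knockout, and each of these calls was lost when some single library was left out.

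RPS25, RPL24, RPL36A and RPS28 were among the members that fell, in comparisons that share the vector libraries. RPS25, a small-subunit protein used by several viral internal ribosome entry sites, measured 1246, 1476 and 1524 TPM in vector, 1035, 1072 and 1068 after loss of HIF1α, 891, 891 and 918 after loss of HIF2α and 1197, 1144 and 1175 after loss of both. All knockout libraries were below all vector libraries and HIF2α-ko was lowest. In HIF2α-ko it fell by 0.65 ± 0.10 on the log2 scale (adjusted p = 0.00291). It fell by 0.41 ± 0.10 with HIF1α lost (adjusted p = 0.00953) and by 0.27 ± 0.10 with both lost (adjusted p = 0.0385). The calls in both single knockouts held with every library left out in turn. That in HIF1α/2α-ko was lost on leaving out any of several libraries, with adjusted p up to 0.13, and with quantile normalization (adjusted p = 0.096).

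RPL24, a large-subunit protein at the subunit interface, measured 2795, 3553 and 3962 TPM in vector, 2451, 2532 and 2409 after loss of HIF1α, 2057, 2041 and 2091 after loss of HIF2α and 2969, 2644 and 2849 after loss of both. Both single knockouts lay below vector, while the dual knockout overlapped with it. The dual knockout was above HIF2α-ko by 0.45 ± 0.12 (adjusted p = 0.00868), where the median of all genes was 0.23. This excess did not pass with median ratio scaling. RPL24 fell by 0.46 ± 0.12 (adjusted p = 0.015) with HIF1α lost and by 0.72 ± 0.12 (adjusted p = 0.00475) with HIF2α lost. The first call was lost without HIF1α-ko replicate 3, vector replicate 2 or vector replicate 3, with adjusted p up to 0.069.

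RPL36A, a large-subunit protein, was lower in each knockout. It measured 1656, 2177 and 2053 TPM in vector, 1332, 1281 and 1543 after loss of HIF1α, 1185, 1327 and 1438 after loss of HIF2α and 1382, 1600 and 1499 after loss of both, and no knockout library reached the vector range. On the log2 scale it fell by 0.50 with HIF1α lost, by 0.57 with HIF2α lost and by 0.39 with both lost, with adjusted p values of 0.0153 to 0.026. Each of these calls was lost without at least 1 library, with adjusted p up to 0.098. RPS28, a small-subunit protein, measured 591, 792 and 877 TPM in vector and 522, 572 and 516 in HIF1α/2α-ko, a fall by 0.47 ± 0.15 (adjusted p = 0.0193) that was not called with quantile normalization (adjusted p = 0.056) or without HIF1α/2α-ko replicate 3, vector replicate 2 or vector replicate 3.

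RPS26 was lowest in HIF2α-ko and highest in HIF1α/2α-ko. It encodes a small-subunit protein at the mRNA exit channel, and 30 pseudogenes carry its name. It measured 988, 1266 and 1213 TPM in vector and 872, 781 and 1355 in HIF1α-ko. It measured 733, 623 and 638 in HIF2α-ko and 1871, 1386 and 1394 in the dual knockout. HIF2α-ko lay below all other groups and HIF1α/2α-ko above all of them, while HIF1α-ko overlapped with vector. RPS26 fell by 0.79 ± 0.19 (adjusted p = 0.0227) in HIF2α-ko against vector, and HIF1α/2α-ko exceeded HIF2α-ko by 1.21 ± 0.19 (adjusted p = 0.000338) and HIF1α-ko by 0.66 ± 0.19 (adjusted p = 0.024). The fall in HIF2α-ko did not pass with median ratio scaling (adjusted p = 0.074) or without vector replicate 2, vector replicate 3, HIF2α-ko replicate 2 or HIF2α-ko replicate 3. The excess over HIF1α-ko did not pass with median ratio scaling (adjusted p = 0.076), nor without HIF1α/2α-ko replicate 1, HIF1α-ko replicate 1 or HIF1α-ko replicate 2.

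**Figure D4:**
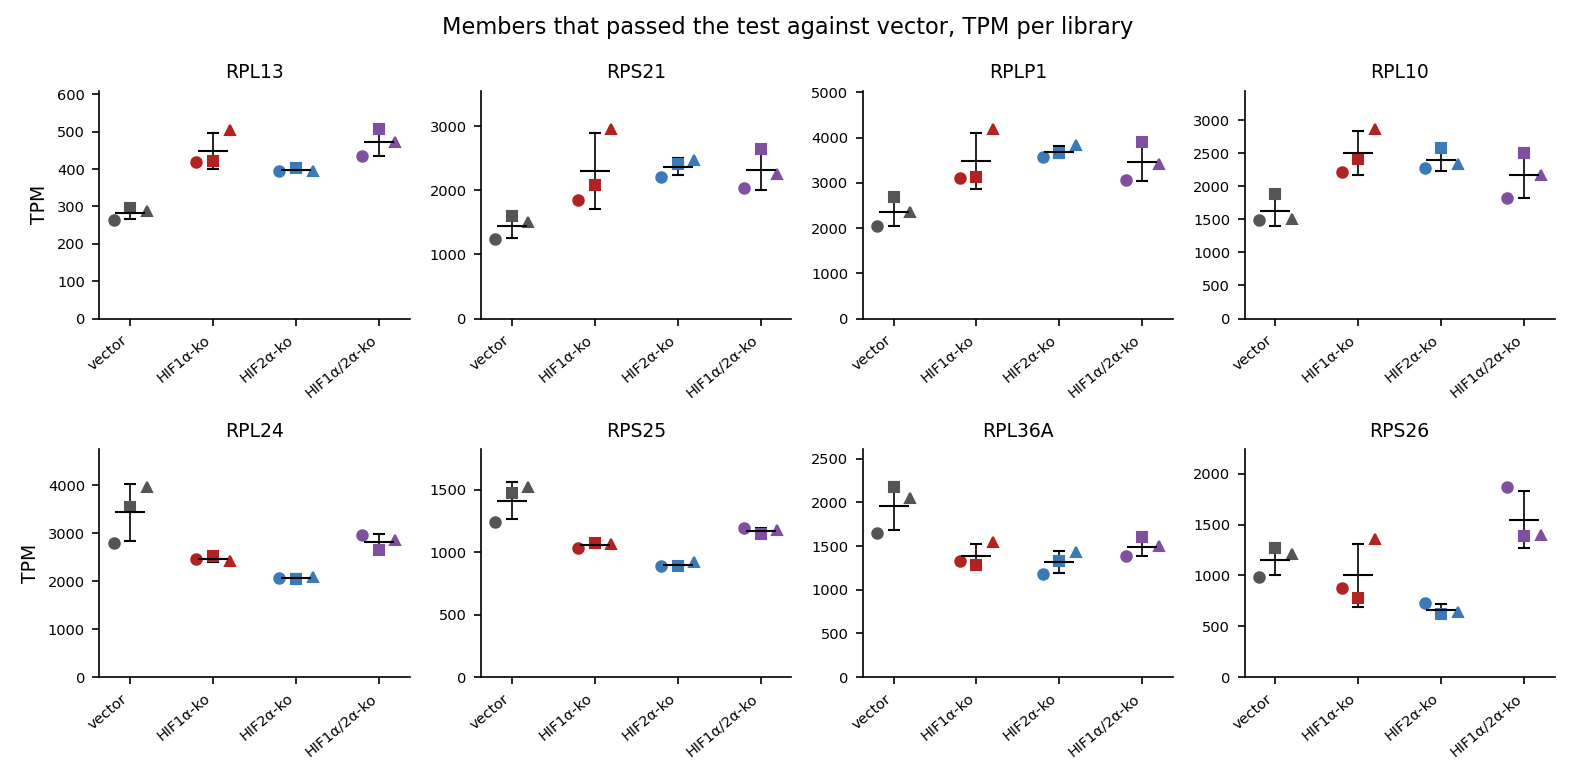
TPM per library of 8 members that passed the test against vector in at least 1 knockout, with circles, squares and triangles for replicates 1, 2 and 3 and bars for the mean ± SD. RPL13 is 264 to 295 TPM in vector and 394 to 509 in the knockouts, and RPS26 is lowest in HIF2α-ko, at 623 to 733 TPM, and highest in HIF1α/2α-ko, at 1386 to 1871.

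The most abundant members, RPL41, RPSA and RPS2, did not pass against vector in any knockout. RPL41 ranged from 6569 to 8008 TPM in vector and from 7758 to 8137 in HIF1α/2α-ko. RPSA ranged from 4726 to 5331 and from 5124 to 5730, and RPS2 from 6002 to 6904 and from 5240 to 6280. In HIF2α-ko the libraries did not overlap with vector for any of these, with RPL41 at 8256 to 8569 TPM and RPSA at 5395 to 6183 above it and RPS2 at 4817 to 5507 below it, but the differences of 0.21 ± 0.10, 0.18 ± 0.10 and −0.36 ± 0.15 (log2, SE) did not pass (adjusted p = 0.17, 0.28 and 0.15). RPLP0 measured 5242, 6338 and 6490 TPM in vector and 7671, 7194 and 7862 in HIF1α-ko, a rise of 0.34 ± 0.11 (adjusted p = 0.0444) that did not pass with median ratio scaling (adjusted p = 0.56). The proteins of the 5S particle that bind MDM2 when ribosome assembly is disturbed, RPL5 and RPL11, ranged from 848 to 1047 and from 2559 to 3262 TPM in vector, and from 976 to 1191 and from 3229 to 4139 in HIF1α/2α-ko, and neither passed against vector. RPS6, the substrate of S6 kinase, ranged from 1716 to 1975 TPM in vector and from 1458 to 1882 in HIF1α/2α-ko. RPS6 lay lower, at 1289 to 1495, in HIF2α-ko, without overlap with vector, and did not pass there. RPL3, RPS27A (made as a fusion with ubiquitin), RPLP2, RPS4X and RPL39 also did not pass against vector.

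Among names that are not ribosomal protein genes of their own, no read-through gene passed against vector, while RPS19BP1 rose in HIF1α-ko and HIF1α/2α-ko. The read-through gene RPS10-NUDT3 had the widest spread of any tested member within groups, 1.02 on the log2 scale (residual SD). It stood at 5.39, 35.4 and 13.0 TPM in vector, 45.4, 8.20 and 7.85 after loss of HIF1α, 6.53, 5.88 and 6.57 after loss of HIF2α and 19.5, 18.0 and 53.7 after loss of both. It passed only in HIF1α/2α-ko against HIF2α-ko, at 1.92 ± 0.68 (adjusted p = 0.0351), and lost that call without HIF1α/2α-ko replicate 3 or any HIF2α-ko library. RPL17-C18orf32 (4.32 to 20.7 TPM) and RPL36A-HNRNPH2 (97.4 to 251 TPM) did not pass. RPS19BP1 measured 45.7, 72.7 and 63.6 TPM in vector and 82.1, 92.0 and 95.0 in HIF1α-ko, and rose by 0.58 ± 0.15 (adjusted p = 0.0163) there and by 0.43 ± 0.15 (adjusted p = 0.0348) in HIF1α/2α-ko, neither with median ratio scaling.

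The tested members were also counted by the tract at their start. Among all tested genes, 31.8% were higher and 14.8% lower in the dual knockout, 17.3% and 8.77% in HIF1α-ko, and 5.07% and 5.89% in HIF2α-ko. Of 48 members with a tract, the dual knockout had 20 higher and 2 lower, HIF1α-ko had 16 higher and 3 lower, and HIF2α-ko had 8 higher and 3 lower. Of 21 matched members without one, the dual knockout had 7 and 1, HIF1α-ko had 3 and 0, and HIF2α-ko had 0 and 3. Median log2 fold changes with and without the tract were 0.30 and 0.17 after loss of HIF1α, 0.11 and −0.01 after loss of HIF2α and 0.32 and 0.25 after loss of both, beside 0.18, −0.04 and 0.21 for all genes. The difference between these sets was not tested, and RPL24, RPS25 and RPL36A, which fell, have a tract too.

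Over the 12 libraries, RPL30 (r = 0.967) was among the members that followed the summed TPM of the members most closely on the log2 scale, and RPS2 (r = −0.350) and RPL39L (r = −0.348) followed it least. Each member is part of the sum, and all values of a library share its scaling. Outside the members, TCP1, a subunit of the chaperonin that folds actin and tubulin (r = 0.947), and CBS, which makes cystathionine (r = 0.945), were nearest to the median of the members together with ENSG00000274276, for which no symbol was used (r = 0.950). These correlations describe the 12 libraries.

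The ribosomal proteins named otherwise gave similar values. FAU, made as a fusion with a ubiquitin-like protein, measured 254, 298 and 267 TPM in vector and rose in each knockout, by 0.65 ± 0.13 with HIF1α lost (adjusted p = 0.00439), 0.49 ± 0.13 with HIF2α lost (adjusted p = 0.033) and 0.45 ± 0.13 with both lost (adjusted p = 0.013). RACK1 rose by 0.40 ± 0.13 (adjusted p = 0.024) in HIF1α/2α-ko. Of the 78 mitochondrial ribosomal protein genes, 32 were higher and 6 lower in the dual knockout, 19 and 5 in HIF1α-ko, and 10 and 7 in HIF2α-ko, with medians of 0.32, 0.20 and 0.04. In the same order, 41.0%, 24.4% and 12.8% of these genes were higher, beside 31.8%, 17.3% and 5.07% of all tested genes. The shares that were lower were 7.69%, 6.41% and 8.97%, beside 14.8%, 8.77% and 5.89%.

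The genes that build ribosomes had higher median changes than the ribosomal proteins in the dual knockout. Of 42 genes of RNA polymerase I and ribosome assembly, 22 were higher and 1 lower in HIF1α/2α-ko, against 1 and 3 with HIF1α lost and 0 and 0 with HIF2α lost, and the median in the dual knockout was 0.52. In the dual knockout this is 52.4% higher and 2.38% lower, where 31.8% and 14.8% of all tested genes passed and their median was 0.21. With HIF1α lost 17.3% and 8.77% of all tested genes passed, and with HIF2α lost 5.07% and 5.89%. The assembly factors RRS1 (2.48 ± 0.23), NOP2 (2.37 ± 0.23), NIP7 (1.75 ± 0.21), BOP1 (1.54 ± 0.20) and BYSL (1.57 ± 0.22) rose (log2, SE), and PPAN fell by 1.34 ± 0.18. Of 10 tested chaperones and importers of ribosomal proteins, 8 were higher and 0 lower in HIF1α/2α-ko by limma (background 31.8% and 14.8%), with a median of 0.64, and 3 and 0 in HIF1α-ko (background 17.3% and 8.77%). Among them were GRWD1, which escorts RPL3 (1.74 ± 0.14), LTV1, which acts on the small subunit (1.76 ± 0.33), AAMP (0.99 ± 0.16), HEATR3, which imports RPL5 (0.72 ± 0.19), and TSR2, which escorts RPS26 (0.42 ± 0.12). Some genes stand in more than 1 list.

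**Figure D5:**
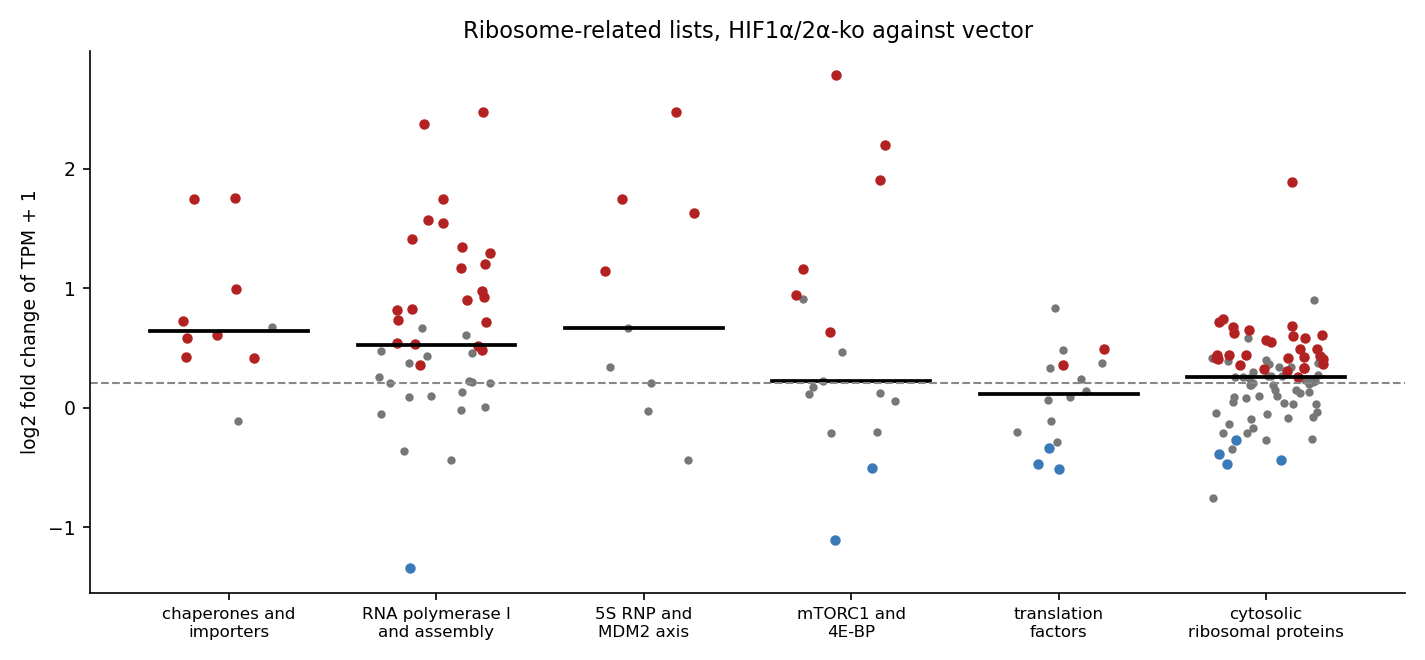
Difference in log2(TPM + 1) between HIF1α/2α-ko and vector for the tested genes of 5 ribosome-related lists and for the 87 tested cytosolic ribosomal protein genes, in red where higher and blue where lower at an adjusted p under 0.05, with black lines for list medians and a dashed line for the median of all tested genes (0.21). The median is 0.64 for chaperones and importers, 0.52 for RNA polymerase I and assembly and 0.26 for the ribosomal proteins.

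The genes around ribosome stress and translation control moved in both directions. Of 9 tested genes of the 5S particle and the MDM2 axis, 4 were higher and 0 lower in HIF1α/2α-ko by limma (background 31.8% and 14.8%), among them CDKN1A, an inhibitor of the cell cycle (1.15 ± 0.27), GRWD1 and RRS1. In the mTORC1 list of 17 tested genes, 6 were higher and 2 lower in HIF1α/2α-ko, 4 and 1 with HIF1α lost and 1 and 2 with HIF2α lost. The 35.3% higher in the dual knockout lay near the 31.8% of all tested genes. With HIF1α lost 23.5% were higher, beside 17.3%, and with HIF2α lost 5.88%, beside 5.07%. SESN2, which senses leucine upstream of mTORC1, rose by 2.78 ± 0.23 in the dual knockout and by 1.67 ± 0.23 in HIF1α-ko. LARP1, which binds the TOP tract, rose by 0.94 ± 0.12 in the dual knockout and by 0.36 ± 0.12 in HIF1α-ko, and fell by 0.61 ± 0.12 in HIF2α-ko. RPTOR, the scaffold of mTORC1, fell by 1.11 ± 0.16 in HIF1α/2α-ko. Of 16 translation factors and other TOP mRNAs, 0 were higher and 2 lower (12.5%) in each single knockout by limma. All tested genes had 17.3% higher and 8.77% lower in HIF1α-ko, and 5.07% and 5.89% in HIF2α-ko. In the dual knockout 2 of these mRNAs were higher and 3 lower, or 12.5% and 18.8%, beside 31.8% and 14.8% of all tested genes. PABPC1, which binds the poly(A) tail, fell by 0.85 ± 0.17 in both HIF1α-ko (adjusted p = 0.0042) and HIF2α-ko (adjusted p = 0.0086) and by 0.51 ± 0.17 in HIF1α/2α-ko (adjusted p = 0.025).

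Whether the change on losing HIF2α depended on HIF1α was tested with an interaction term. The effect of the loss with HIF1α absent exceeded that with HIF1α present for 10 members and was below it for 4, against 13.2% and 7.35% of all tested genes. Among the 10 were RPS24, RPS25, RPS26, RPL4, RPL12, RPL24, RPL36A, RPL37 and RPL22L1, and the 4 were RPS9, RPS19, RPL10 and RPLP1. With median ratio scaling, 4 and 3 members passed, beside 1376 and 1034 of all 11731 tested genes. The first count was 18 without vector replicate 1, 5 without HIF1α-ko replicate 2 or HIF2α-ko replicate 1 or 2, and 6 without vector replicate 3, HIF1α-ko replicate 3 or HIF1α/2α-ko replicate 2 or 3. The second was 9 without HIF1α-ko replicate 1, 2 without HIF2α-ko replicate 1 or HIF1α/2α-ko replicate 3, and 1 without HIF1α-ko replicate 3 or HIF2α-ko replicate 2. Without the library numbered 1 of every group, the counts were 26 and 10, beside 2893 and 2147 of all 11731 tested genes.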

How the data were processed

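The deposited table gives TPM values for 12 mRNA-seq libraries made from total RNA. The authors normalized these values to gene length and to a common sum, and the column totals lie between 999955 and 999982. The submitters' processing notes name FastQC 0.11.2, Trimmomatic 0.36, HISAT2 2.0, bedtools 2.26.0 and GRCh38. The program that counted reads, the annotation release and any strand setting are not given in the sources used here. Symbols were matched by Ensembl identifier for 20148 genes, a further 76 in GENCODE 29, and 39 had none. Sequences came from RefSeq (GRCh38.p14), and 19 members had no entry there.

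For log2(TPM + 1), limma 3.58.1 (R 4.3.3) was run with its trend option on genes with at least 1 TPM in at least 3 libraries. All 4 groups entered 1 fit with 8 residual degrees of freedom, 6 contrasts were drawn, and p-values were adjusted within each contrast over 11731 genes, with 0.05 as threshold. The steps were tested on simulated data. TPM hold no counts, so no count model was used. The authors' methods name no test for these libraries.

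Members and lists were chosen with earlier results of these data known. Genes named were, for each contrast with vector, up to 4 rises and 4 falls of largest size among members past the threshold, the 4 most and 2 least abundant members, fixed well-known members, copy genes with their partners, read-through and binding-protein names, the 2 most and 2 least like the summed level, up to 6 genes per other list, and the 3 non-members nearest to the members' median, 42 members in all. Other members stand in the text where counts of called genes are spelled out, and this was done after their values were seen. Deviations from the group means at equal replicate numbers correlated at 0.196 to 0.508 between knockout groups. Between vector and a knockout group they correlated at −0.0265 to 0.163. A block over the knockout groups only was therefore added. The labels give no pairing, and between knockout groups the correlations were highest for libraries numbered 1 (0.463 to 0.508). Whether the numbers pair the samples was not tested. Alternatives were another pseudocount (0.1), no filter or a mean of at least 5 TPM, median ratio scaling, quantile normalization, rescaling to the genes that are not members, fits on 2 groups, a replicate block, and leaving out each library. The 2 genes on the Y chromosome were counted but not reported. Some other genes that the rule names are not reported here, though counts include them.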

Additional observations from a re-analysis of the deposited data

Results flagged for a closer look

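For 7 of the members named here, the change on losing HIF2α differed with the presence of HIF1α by the interaction test of limma. The difference was 1.45 for RPS26 (adjusted p = 0.00439), 1.21 for RPL22L1 (adjusted p = 0.0395), 0.91 for RPL24 (adjusted p = 0.00392), 0.79 for RPS25 (adjusted p = 0.00292) and 0.68 for RPL36A (adjusted p = 0.0217), on the log2 scale. It was −0.65 for RPLP1 (adjusted p = 0.0391) and −0.79 for RPL10 (adjusted p = 0.0187). RPS26, RPL24 and RPS25 passed with median ratio scaling, with quantile normalization and with every library left out in turn. RPL22L1 did not pass with quantile normalization (adjusted p = 0.058), and leaving out single libraries raised its adjusted p to 0.097 at most. RPL36A did not pass with median ratio scaling (adjusted p = 0.070). RPL10 and RPLP1 passed with both rescalings, and reached adjusted p values of 0.051 and 0.088 when a library was left out.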

How the results depend on the processing

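Counts are given as members higher and then lower. For HIF1α-ko against vector (21 and 4), fits on 2 groups gave 6 and 0, median ratio scaling 1 and 6, the replicate block 33 and 5, the omission of all libraries numbered 1 gave 38 and 14, and leaving out 1 library gave 5 to 25 and 1 to 9. For HIF2α-ko against vector (8 and 8), the values were 3 and 4 on 2 groups, 5 and 3 with median ratio scaling, 5 and 6 with no filter, 12 and 14 with the replicate block, 13 and 23 without the libraries numbered 1, and 1 to 8 and 3 to 14 on leaving out 1 library. For HIF1α/2α-ko against vector (30 and 4), they were 19 and 1 on 2 groups, 5 and 7 with median ratio scaling, 32 and 2 after rescaling to the genes that are not members, 47 and 4 with the block, 42 and 9 without the libraries numbered 1, and 14 to 36 and 1 to 6 on leaving out 1 library. For HIF1α/2α-ko against HIF1α-ko (3 and 0), the block gave 4 and 1, the block over the knockout groups 12 and 2, the omission of libraries numbered 1 gave 8 and 3, and leaving out 1 library 1 to 6 and 0. For HIF1α/2α-ko against HIF2α-ko (24 and 0), median ratio scaling gave 3 and 1, the block 40 and 0, the block over the knockout groups 51 and 0, the omission of libraries numbered 1 gave 48 and 0, and leaving out 1 library 12 to 32 and 0. For the interaction (10 and 4), no filter gave 6 and 3, median ratio scaling 4 and 3, the block 18 and 9, the omission of libraries numbered 1 gave 26 and 10, and leaving out 1 library 5 to 18 and 1 to 9. The counts of all 11731 tested genes moved as well. On 2 groups they were 1415 and 726 for HIF1α-ko, 224 and 250 for HIF2α-ko and 3049 and 1335 for HIF1α/2α-ko, each against vector. With the block they were 2672 and 1296, 894 and 1174, and 4157 and 2008 in the same order. Counts of all genes with median ratio scaling, and without the libraries numbered 1, stand with each comparison above. Counts of all genes with a single library left out are not given here. The cause of these differences was not tested. Settings not listed stayed within 1.5 times the member count. With the block, 2527 and 1555 genes passed for HIF1α/2α-ko against HIF1α-ko, 4374 and 1733 against HIF2α-ko, and 2128 and 1112 for the interaction. With no filter 16881 genes entered, of which 581 and 589 passed for HIF2α-ko against vector and 1335 and 889 for the interaction. After rescaling to the genes that are not members, 3879 and 1630 of all tested genes passed for HIF1α/2α-ko against vector. The share of total TPM moved by less than 1 SD without the read-through, copy and binding-protein names. The same held with mitochondrial genes taken out of the total. Leaving out 1 of 3 libraries cannot move a mean by 1 SD of those libraries, so that limit is no check there. The means were then 14.6% to 15.9% in vector and 16.1% to 17.1% in HIF1α-ko. They were 14.9% to 15.1% in HIF2α-ko and 16.7% to 17.5% in HIF1α/2α-ko.

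Of 882 recomputed fold changes for the 42 called or quoted values of named members against vector, none changed sign, 186 no longer passed and 5 newly passed. Median ratio scaling accounted for 19 of the losses, fits on 2 groups for 23 and omission of single libraries for 124. Of 1638 values for the 78 comparisons with vector in which a named member did not pass, 79 had the other sign and 0 of these passed, while 69 passed with the same sign. The block calls concern vector comparisons, in which deviations at equal numbers correlated at only −0.0265 to 0.163. TPM without depth set no counting error, and 3 libraries a group limit the precision.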

Other observations

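Single members each held a small share of the members' summed TPM. RPL41 made up 5.61% ± 0.160 of it in HIF2α-ko, 4.82% ± 0.165 in vector, 4.95% ± 0.0720 in HIF1α-ko and 4.68% ± 0.121 in the dual knockout (SD, n = 3). RPS2 made up 4.33% ± 0.571 in vector and 3.31% ± 0.506 in HIF1α/2α-ko. RPL22L1 made up 0.0465% ± 0.0116 in vector and 0.154% ± 0.0382 in HIF1α/2α-ko. RPL24 made up 2.26% ± 0.237 in vector and 1.37% ± 0.0180 in HIF2α-ko. These shares were not tested.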
